A study of Mus musculus with 7 samples.

Results

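The genes described are 9 members of the Wnt pathway: the T cell factor (Tcf) genes Lef1, Tcf7, Tcf7l1 and Tcf7l2, and the Wnt feedback and receptor genes Axin2, Nkd1, Nkd2, Lgr4 and Lgr5. They were taken by symbol from an RNA sequencing table of 31274 rows, and all 9 passed the filter on low values that left 13920 rows to test. RNA came from uteri of intact, untreated CD-1 mice aged 2 months, CD-1 being an outbred stock. The animals were at diestrus (4 libraries) or at estrus (3 libraries), with no genotype or agent differing between the groups. Estrus comes after the ovarian estradiol peak, whereas at diestrus the corpora lutea secrete progesterone. Values are FPKM, fragment numbers scaled to transcript length and library size, so levels of different genes can be compared per length. The labels do not say that each library is a separate animal, so p-values measure the spread between libraries, which may be technical.

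In canonical Wnt signalling, a secreted Wnt ligand binds a Frizzled receptor with Lrp5 or Lrp6, and β-catenin, otherwise marked for destruction by a complex built on Axin, accumulates and enters the nucleus. There it binds the Tcf factors, DNA-binding proteins of the HMG-box class that recruit Groucho (Tle) corepressors in its absence and activate their targets in its presence. Axin2, Nkd1, Nkd2 and Lgr5 are widely used as readouts of the pathway, and Axin2 and the Naked proteins in turn restrain it. In the uterus, Wnt signalling is known for its part in gland formation, in the crosstalk of stroma and epithelium and in the decidual response.

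At estrus, 6 of the 9 genes were lower than at diestrus, 1 was higher and 2 did not pass the test. Lef1 had a mean FPKM 13.5-fold higher at diestrus than at estrus and Lgr5 27.6-fold higher, Nkd2 and Nkd1 stood 5.02-fold and 2.87-fold higher, and Tcf7l1 and Axin2 1.66-fold and 1.60-fold higher. Lgr4 was higher at estrus, by 0.55 on the log2 scale, and Tcf7 and Tcf7l2 had nearly equal means in the groups. The test was limma on log2(FPKM + 1) over all 13920 rows with a Benjamini-Hochberg adjusted p under 0.05. Lef1 and Lgr5 were under 1 FPKM in every estrus library, so they passed the filter only through diestrus. A row that enters in this way can hardly be called anything but lower at estrus. With no filter, limma gave them adjusted p = 0.00845 and 0.00817. There it called 1839 of 21444 rows lower and 2184 higher at estrus. With the filter, limma called 14.0% of all 13920 rows lower and 17.2% higher at estrus, 31.1% in all. The 6 falling members did not overlap between stages, as was so for 18.7% of all rows in that direction, nor did Lgr4, as for 21.9% in the other direction and 40.6% in either. The members were picked with earlier results of these data known, so their share is a description. The median log2 fold change, estrus minus diestrus, was -0.66 over the 9 genes and 0.048 over all rows. Leaving out estrus replicate 2 left 3 of the 6 falls (Lef1, Lgr5 and Nkd2), when 4.20% of all rows were called lower. In bulk RNA of the uterus, fewer cells of a type and less RNA per cell cannot be told apart.

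**Figure D1:**
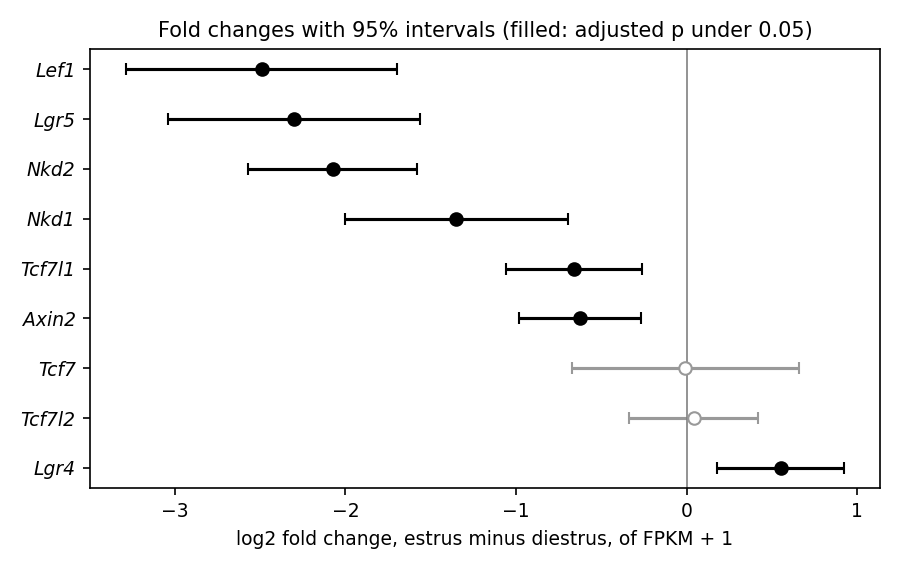
Log2 fold change of FPKM + 1, estrus minus diestrus, for each of the 9 genes, with 95% intervals from limma. Filled points passed an adjusted p of 0.05, and the intervals of Tcf7 and Tcf7l2 span 0.

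The stretches before the RefSeq start sites of Lef1, Axin2 and Nkd2 are shown, since these 3 were lower at estrus and their first windows lie before the gene in GENCODE as well. The sequences are RefSeq's (GRCm38.p6), 250 bases each, read 5′ to 3′ on the strand of the gene, and capitals mark the core of the Tcf motif, CTTTG or its reverse complement CAAAG. The windows lie at chr3:131110047-131110296 (plus strand) for Lef1, chr11:108920099-108920348 (plus strand) for Axin2 and chr13:73847632-73847881 (minus strand) for Nkd2.
Lef1: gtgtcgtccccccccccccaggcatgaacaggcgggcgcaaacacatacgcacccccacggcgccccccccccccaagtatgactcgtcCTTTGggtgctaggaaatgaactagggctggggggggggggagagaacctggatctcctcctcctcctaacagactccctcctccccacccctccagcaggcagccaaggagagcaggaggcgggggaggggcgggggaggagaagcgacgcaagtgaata
Axin2: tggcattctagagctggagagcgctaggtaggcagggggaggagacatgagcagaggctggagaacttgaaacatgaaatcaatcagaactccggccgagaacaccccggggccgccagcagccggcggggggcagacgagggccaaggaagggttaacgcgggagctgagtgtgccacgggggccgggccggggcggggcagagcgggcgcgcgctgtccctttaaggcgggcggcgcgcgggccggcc
Nkd2: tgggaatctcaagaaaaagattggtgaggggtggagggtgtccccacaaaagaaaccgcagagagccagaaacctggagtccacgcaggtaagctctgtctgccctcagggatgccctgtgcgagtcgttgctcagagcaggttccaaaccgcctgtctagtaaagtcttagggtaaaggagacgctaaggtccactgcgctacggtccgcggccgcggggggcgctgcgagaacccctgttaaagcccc
The core stood 161 bases before the RefSeq start site of Lef1, and it was in neither the Axin2 nor the Nkd2 window. All 250 bases of the Lef1 window lie in an exon of the antisense gene Gm43352 in GENCODE. The annotations differ for Tcf7l1, where 209 of the 250 bases before the RefSeq start site lie in an exon of the gene in GENCODE, and the Nkd1 window lies wholly inside its GENCODE gene. RefSeq gave 13 windows for 8 of the 9 members, among them 4 for Lef1, whose start sites differ. The core was found in 7 of these 13, all of Lef1, Tcf7l1 or Tcf7l2, against 48.6% of all 32851 windows in the table. Lef1 windows 1 and 2 overlap, and the core of window 1 is counted again in window 2. Lef1 windows 3 and 4, Tcf7 window 2 and Tcf7l2 window 2 also lie wholly inside their GENCODE genes. The longer motifs CTTTGAT and CTTTGAA, searched on both strands, were in 0 of the 13, against 3.21% and 4.46% of all windows. The Axin2 window held 24 CG dinucleotides, where Lef1 had 11, Nkd2 had 14 and the median window had 6.

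Lef1 encodes lymphoid enhancer factor 1, a Tcf factor that mostly activates targets and is itself a Wnt target in many tissues. The gene lies on GRCm38 chromosome 3, 131110471 to 131224356, and is protein-coding. Its level was 6.08, 6.80, 17.9 and 6.79 FPKM across diestrus libraries 1 to 4, against 0.946, 0.606 and 0.540 FPKM across estrus libraries 1 to 3. Every diestrus library was above every estrus library, and diestrus replicate 3 stood far above the other diestrus libraries. Lef1 fell, its mean being 9.38 ± 5.66 FPKM at diestrus (SD, n = 4) and 0.697 ± 0.218 at estrus (SD, n = 3), and limma put the log2 change at -2.49 (SE 0.34) with adjusted p = 0.00317. Adding 1 before taking logarithms makes the change of a gene this low look smaller. Leaving out diestrus replicate 3 gave -2.16 (adjusted p = 0.00244). When each library was left out in turn, the largest adjusted p was 0.0212.

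Tcf7l1 encodes the family member best known as a repressor of Wnt targets in the absence of β-catenin (chromosome 6, 72626378 to 72789254). It was at 12.5, 17.4, 12.1 and 16.9 FPKM across diestrus libraries 1 to 4, against 10.2, 8.52 and 7.88 FPKM across estrus libraries 1 to 3. The groups did not overlap, but estrus replicate 1 lay close under the lowest diestrus library. Tcf7l1 fell, its mean being 14.7 ± 2.81 FPKM at diestrus (SD, n = 4) and 8.88 ± 1.22 at estrus (SD, n = 3), and limma put the log2 change at -0.66 (SE 0.17) with adjusted p = 0.0255. This call was lost without diestrus replicate 2 (adjusted p = 0.0557), diestrus replicate 4 (0.0678), estrus replicate 2 (0.101) or estrus replicate 3 (0.0698).

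Tcf7, which encodes TCF1 (chromosome 11, 52252371 to 52283014), was at 30.6, 30.9, 24.7 and 16.1 FPKM across diestrus libraries 1 to 4, against 35.97, 22.3 and 18.7 FPKM across estrus libraries 1 to 3. Both groups spanned a similar range, with the highest value in estrus replicate 1 and the lowest in diestrus replicate 4. Its log2 fold change was -0.0079 (95% interval -0.67 to 0.66, limma adjusted p = 0.986), and it turned to 0.09 without diestrus replicate 1 or 2, 0.06 without estrus replicate 2 and 0.18 without estrus replicate 3. Tcf7l2, which encodes TCF4, an effector of Wnt signals in gut and other epithelia (chromosome 19, 55741820 to 55933654), was at 7.07, 11.3, 9.43 and 10.1 FPKM in the diestrus libraries and 9.93, 10.2 and 8.78 FPKM in the estrus libraries, in replicate order. The estrus libraries lay within the diestrus range. Its log2 fold change was 0.041 (95% interval -0.34 to 0.42, limma adjusted p = 0.865). Without diestrus replicate 1 its sign turned (-0.08). A change within either interval could not be told from none with these libraries.

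**Figure D2:**
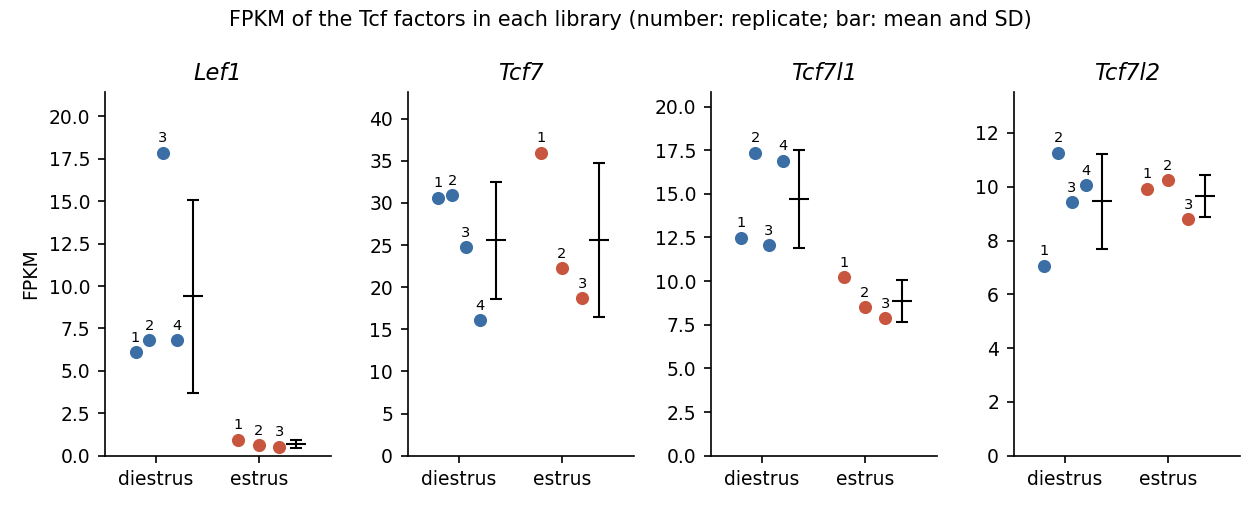
FPKM (vertical axis, from 0) of the 4 Tcf factors in each library, grouped by stage, with replicate numbers at the points and mean and SD beside them. Lef1 and Tcf7l1 show no overlap between stages, whereas Tcf7 and Tcf7l2 overlap.

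Lef1 had a larger log2 change than the other Tcf factors. It passed the filter only through diestrus, so a fall against steadier genes was partly built in. The tests of its pairs are therefore a description, and how many other pairs of rows separate in this way was not counted. The library-wise difference in log2(FPKM + 1) between Lef1 and Tcf7l2 was -0.12 ± 0.68 (SD, n = 4) at diestrus and -2.65 ± 0.16 (SD, n = 3) at estrus. That between Lef1 and Tcf7 moved by -2.48 from diestrus to estrus, and that between Lef1 and Tcf7l1 by -1.83. For each of these 3 pairs the groups did not overlap, and an exact two-sided permutation test over all 35 assignments of the libraries to 4 and 3 gave its smallest possible p, 0.0286 (0.0357 after Benjamini-Hochberg adjustment over the 5 pairs tested). With a pseudocount of 5 the adjusted p was 0.0714 to 0.0857.

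The make-up of the 4 Tcf factors was compared as shares. Lef1 held 10.8%, 10.2%, 27.9% and 13.6% of the summed FPKM of the 4 genes in diestrus replicates 1 to 4 and 1.46% to 1.66% in the estrus libraries. Tcf7 was the largest part in 6 of the 7 libraries, at 38.6% to 63.0%, and in diestrus replicate 4 it held 32.3% against 33.9% for Tcf7l1. The summed level was 59.1 ± 7.55 FPKM (SD, n = 4) at diestrus and 44.9 ± 11.0 (SD, n = 3) at estrus, with overlapping groups. These shares are a description and were not tested.

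**Figure D3:**
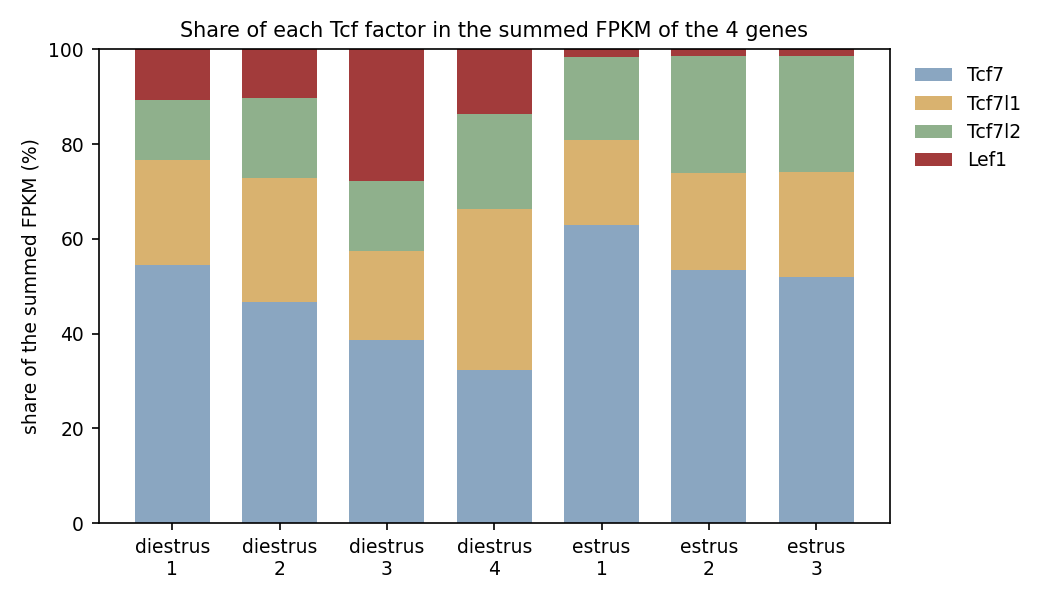
Share (%) of Tcf7, Tcf7l1, Tcf7l2 and Lef1 in the summed FPKM of these 4 genes, one bar per library. The Lef1 share is 10.2% to 27.9% in the diestrus libraries and at most 1.66% in the estrus libraries.

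Axin2 encodes a scaffold of the β-catenin destruction complex and is the most used feedback target of the pathway (chromosome 11, 108920349 to 108950783). Its level was 25.7, 31.1, 25.35 and 19.8 FPKM across diestrus libraries 1 to 4, against 16.7, 15.8 and 15.5 FPKM across estrus libraries 1 to 3. The estrus libraries were close together and all under the lowest diestrus library. Axin2 fell, its mean being 25.5 ± 4.62 FPKM at diestrus (SD, n = 4) and 16.0 ± 0.610 at estrus (SD, n = 3), and limma put the log2 change at -0.63 (SE 0.15) with adjusted p = 0.0213. The adjusted p was 0.0514, 0.0871 and 0.0548 without estrus replicates 1, 2 and 3, and stayed under 0.05 without any 1 diestrus library.

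Nkd1 and Nkd2 encode the Naked cuticle proteins, which bind Dishevelled and dampen the signal. Nkd1 (chromosome 8, 88521354 to 88594884) was at 12.3, 27.3, 15.3 and 23.7 FPKM across diestrus libraries 1 to 4, against 5.80, 6.12 and 8.59 FPKM across estrus libraries 1 to 3. Nkd2 (chromosome 13, 73818534 to 73847631) was at 17.3, 33.4, 23.2 and 20.7 FPKM and at 5.07, 4.95 and 4.13 FPKM in the same order. Neither gene overlapped between stages, and both were highest in diestrus replicate 2 and lowest among diestrus libraries in replicate 1. Nkd1 fell, its mean being 19.7 ± 7.02 FPKM at diestrus (SD, n = 4) and 6.84 ± 1.53 at estrus (SD, n = 3), and limma put the log2 change at -1.35 (SE 0.28) with adjusted p = 0.0122. Without estrus replicate 2 its adjusted p was 0.0580. Nkd2 fell too, its mean being 23.7 ± 6.95 FPKM at diestrus and 4.72 ± 0.511 at estrus (log2 change -2.07, SE 0.21, adjusted p = 0.00145), and passed without any 1 library. The difference Nkd2 minus Nkd1 in log2(FPKM + 1) was 0.28 ± 0.33 (SD, n = 4) at diestrus and -0.44 ± 0.40 (SD, n = 3) at estrus, and the exact permutation p was 0.0857, so unequal change of the pair was not shown.

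Lgr4 and Lgr5 encode receptors of the R-spondins, which potentiate Wnt signals by removing the ubiquitin ligases Znrf3 and Rnf43 from the cell surface. Lgr5, a marker of stem cells in the gut and other epithelia (chromosome 10, 115450311 to 115587780), was at 4.53, 7.46, 6.51 and 2.27 FPKM across diestrus libraries 1 to 4, against 0.321, 0.165 and 0.0777 FPKM across estrus libraries 1 to 3. Every estrus library was far under the lowest diestrus library, which was replicate 4. Lgr5 fell, its mean being 5.19 ± 2.30 FPKM at diestrus (SD, n = 4) and 0.188 ± 0.123 at estrus (SD, n = 3), and limma put the log2 change at -2.30 (SE 0.32) with adjusted p = 0.00322. It passed with any 1 library left out, the adjusted p being 0.0213 at most. The addition of 1 before the logarithm shrinks this value: with 0.1 in place of 1 it was -4.16.

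Lgr4 (chromosome 2, 109917647 to 110014257) was at 14.1, 9.34, 11.0 and 10.3 FPKM across diestrus libraries 1 to 4, against 14.8, 16.7 and 18.8 FPKM across estrus libraries 1 to 3. The groups did not overlap, although diestrus replicate 1 came close to estrus replicate 1. Lgr4 rose, its mean being 11.2 ± 2.04 FPKM at diestrus (SD, n = 4) and 16.8 ± 2.01 at estrus (SD, n = 3), and limma put the log2 change at 0.55 (SE 0.16) with adjusted p = 0.0356. The call held without diestrus replicate 1 (0.0107) and was lost with no filter (0.0510), with quantile normalization (0.0645) and without each other library, at 0.0743, 0.0719 and 0.0884 for diestrus 2, 3 and 4 and 0.0526, 0.120 and 0.0946 for estrus 1, 2 and 3, each left out alone. The difference Lgr5 minus Lgr4 in log2(FPKM + 1) went from -1.05 ± 0.69 (SD, n = 4) to -3.90 ± 0.31 (SD, n = 3) without overlap. The exact permutation p was 0.0286 (adjusted 0.0357, and 0.0714 with a pseudocount of 5). Lgr5 passed the filter only through diestrus, so the direction of this difference was partly built in.

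**Figure D4:**
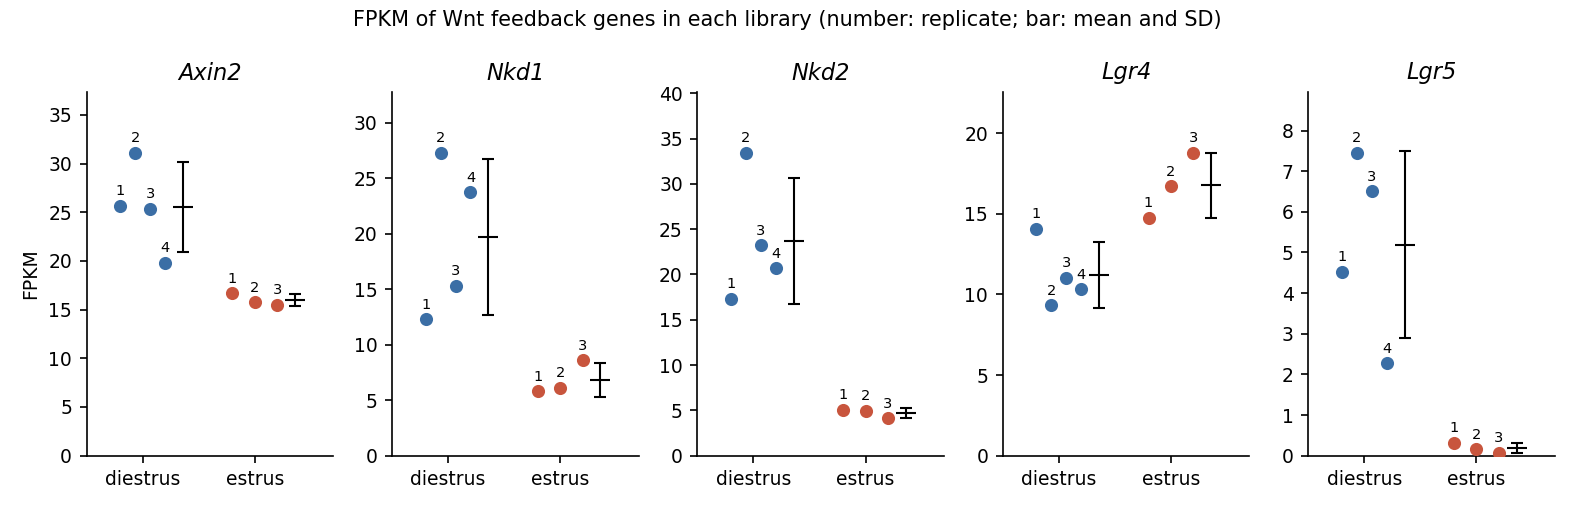
FPKM (vertical axes, from 0) of Axin2, Nkd1, Nkd2, Lgr4 and Lgr5 in each library by stage, with replicate numbers at the points and mean and SD beside them. Lgr4 is the only 1 of the 5 that is higher at estrus.

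In order of mean level at diestrus, Tcf7, Axin2, Nkd2 and Nkd1 (25.6, 25.5, 23.7 and 19.7 FPKM) came before Tcf7l1, Lgr4, Tcf7l2 and Lef1 (14.7, 11.2, 9.46 and 9.38) and Lgr5 (5.19). No neighbours in this order were separate, since their ranges over the 4 libraries overlapped. The estrus order was Tcf7, Lgr4, Axin2, Tcf7l2, Tcf7l1, Nkd1, Nkd2, Lef1 and Lgr5. There, Axin2 lay above Tcf7l2, Nkd1 above Nkd2, Nkd2 above Lef1 and Lef1 above Lgr5 in all 3 libraries with no overlap, and the other neighbours overlapped. Of the 13920 tested rows, 41.1% had a lower diestrus mean than Lef1 and 25.6% a lower one than Lgr5, but only 2.24% and 0.201% had a lower estrus mean. The filter had taken out rows low at both stages, and Lef1 and Lgr5 passed it only through diestrus. Their low rank at estrus thus follows in part from the filter.

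Rows most like each member were found by the root mean square difference, over all 7 libraries, of log2(FPKM + 1) after subtracting the mean of each row, among 9623 named genes whose mean reached 5 FPKM (9624 for Lgr5). Lef1 was closest to Dkk3 (difference 0.377), a secreted protein of the Dickkopf family, and then to Wfdc1 and Osr2. Lgr5 was closest to Osr2 (0.299), a zinc-finger transcription factor, then Snai1 and Tmem132c, and Nkd2 to Usp2, Hoxa9 and Osr2 (0.177, 0.243 and 0.251). Osr2 was thus among the 3 closest rows of Lef1, Lgr5 and Nkd2. It had means of 140.2 FPKM at diestrus and 25.9 at estrus. Nkd1 was closest to Ldb2, Arhgap6 and Meis2 (0.0944 to 0.123). Tcf7l1 lay closest to R3hcc1, Zfp821 and Ddah2, Axin2 to Atat1, Plscr3 and Cntln, Lgr4 to Atl3, Cog2 and Sh3pxd2a, Tcf7l2 to Pcnt, Git1 and Psmd8, and Tcf7 to Cdca7l, Tonsl and Hmgb1. Among the members themselves, Lgr5 and Nkd2 were the closest pair of those that fell by more than 2 on this scale (0.337). Small differences are easier to reach for genes that vary little, so these values do not rank likeness between members.

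Of 18 tested genes in a list of other known Wnt targets, 10 fell, none rose and the median log2 fold change was -0.89. For comparison, 14.0% of all rows were called lower. Sp5, Ascl2, Notum and Fgf9 were under 1 FPKM in every estrus library and passed the filter only through diestrus. Their negative changes, which enter the median, are thus partly built in. Of them, Notum and Fgf9 did not pass the test. Apcdd1, a membrane inhibitor of Wnt signalling, had the largest of these 10 falls, with a log2 change of -1.94. Its mean was 121.2 ± 28.9 FPKM at diestrus (SD, n = 4) and 30.4 ± 5.31 at estrus (SD, n = 3). It was at 138.0, 129.7, 139.0 and 78.3 FPKM across diestrus libraries 1 to 4, against 27.3, 27.4 and 36.6 FPKM across estrus libraries 1 to 3, with no overlap. The transcription factors Id2, Myc, Sp5, Tbx3 and Ascl2 passed with log2 changes of -1.48, -1.39, -1.32, -0.88 and -0.95. Tnfrsf19, the growth factor gene Bmp4, the adhesion receptor gene Cd44 and the ubiquitin ligase gene Znrf3 passed with -1.31, -1.04, -0.78 and -0.77. Sox9, Ccnd1 and Rnf43 did not pass (adjusted p = 0.906, 0.411 and 0.890). Dkk1 and Cdx1 were at or near 0 in every library and Wif1 was above 1 FPKM in only 2, so these were not tested. Without estrus replicate 2 or 3, 5 of these genes fell, and 6 did without estrus replicate 1 or with no filter. The calls over all rows changed too, and 4.20% of them were lower without estrus replicate 2. They were 1430 of 13759 rows without estrus replicate 3, 1106 of 13764 without estrus replicate 1 and 1839 of 21444 with no filter.

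Among 20 tested genes of β-catenin and its nuclear partners, 4 rose and 5 fell, with a median of 0.096, where 17.2% of all rows rose and 14.0% fell. The share that rose was thus near that of all rows. Ctnnb1, which encodes β-catenin, rose, with means of 339.9 ± 43.7 FPKM at diestrus (SD, n = 4) and 597.0 ± 30.1 at estrus (SD, n = 3) and a log2 change of 0.82. Bcl9, which links β-catenin to Pygopus, stood at 19.6, 17.9, 19.99 and 16.2 FPKM across diestrus libraries 1 to 4, against 48.6, 65.3 and 68.5 FPKM across estrus libraries 1 to 3. It rose by 1.66 (SE 0.15, limma adjusted p = 0.00124), and Bcl9l and Tbl1xr1 by 0.57 and 0.45. The Groucho corepressor genes Tle1, Tle2 and Tle4 fell (log2 changes -0.81, -1.18 and -0.80), whereas Tle3 had a log2 fold change of 0.40 (adjusted p = 0.153). Pygo1 and the β-catenin antagonist gene Cby1 fell as well (-0.78 and -0.45). Without estrus replicate 2 only 1 gene of this list rose and 1 fell, and 2 rose without diestrus replicate 4. After quantile normalization 2 rose, and 2 fell among genes with a mean of 5 FPKM or more. Over all rows, 854 of 13770 rose and 4.20% fell without estrus replicate 2, and 1420 of 13708 rose without diestrus replicate 4. The rises were 1684 of 13920 rows after quantile normalization, and 1181 of 10622 fell at a mean of 5 FPKM or more.

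In the destruction complex and Dishevelled list, 2 of 18 tested genes rose and 2 fell, with a median of 0.049. Both shares were below the 17.2% and 14.0% of all rows. The kinase genes Csnk1a1 and Csnk1e rose by 0.56 and 0.45. Dact1, an inhibitor of Dishevelled, fell, with means of 6.52 ± 0.853 FPKM at diestrus (SD, n = 4) and 1.92 ± 0.310 at estrus (SD, n = 3) and a log2 change of -1.36, and Dvl2 fell by 0.55. Axin1, the constitutive relative of Axin2, was at 21.0 to 23.9 FPKM at diestrus and 20.5 to 23.7 at estrus (log2 fold change 0.027, adjusted p = 0.866). With diestrus replicate 3 or 4 or estrus replicate 2 left out no gene of this list rose, and 1 rose without diestrus replicate 2 or estrus replicate 3, while 1 fell without estrus replicate 2. The rises numbered 1 with no filter, 1 after median-ratio scaling and 0 after quantile normalization. Among genes with a mean of 5 FPKM or more, 1 fell. Over all rows, 1736 of 13729 rose without diestrus replicate 3 and 1420 of 13708 without diestrus replicate 4. The rises over all rows were 854 of 13770 without estrus replicate 2 and 1761 of 13712 without diestrus replicate 2. With no filter 2184 of 21444 rose, and 1684 of 13920 after quantile normalization. Without estrus replicate 2, 4.20% fell.

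Among 17 tested receptor and turnover genes, 4 rose and 4 fell, with a median of -0.16, beside 17.2% and 14.0% of all rows. Lgr6, the third R-spondin receptor of the Lgr family, was at 3.42, 3.21, 2.73 and 2.67 FPKM across diestrus libraries 1 to 4, against 13.4, 22.5 and 29.8 FPKM across estrus libraries 1 to 3. All estrus libraries were far above all diestrus libraries, opposite to Lgr5. Lgr6 rose by 2.45 (SE 0.25, limma adjusted p = 0.00141). Ror2, Fzd5 and the coreceptor gene Lrp5 rose by 0.92, 0.89 and 0.50. Fzd1, Fzd2, Fzd3 and Znrf3 passed with changes of -0.82, -0.54, -0.48 and -0.77. Without diestrus replicate 2, diestrus replicate 4 or any 1 estrus library, only 1 receptor gene fell, and 2 without diestrus replicate 3. Over all rows, 1506 of 13712 fell without diestrus replicate 2 and 1139 of 13708 without diestrus replicate 4. The falls over all rows were 1429 of 13729 without diestrus replicate 3 and 4.20% without estrus replicate 2. They were 1106 of 13764 without estrus replicate 1 and 1430 of 13759 without estrus replicate 3. Znrf3 and Rnf43 are in both the receptor and the target list.

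**Figure D5:**
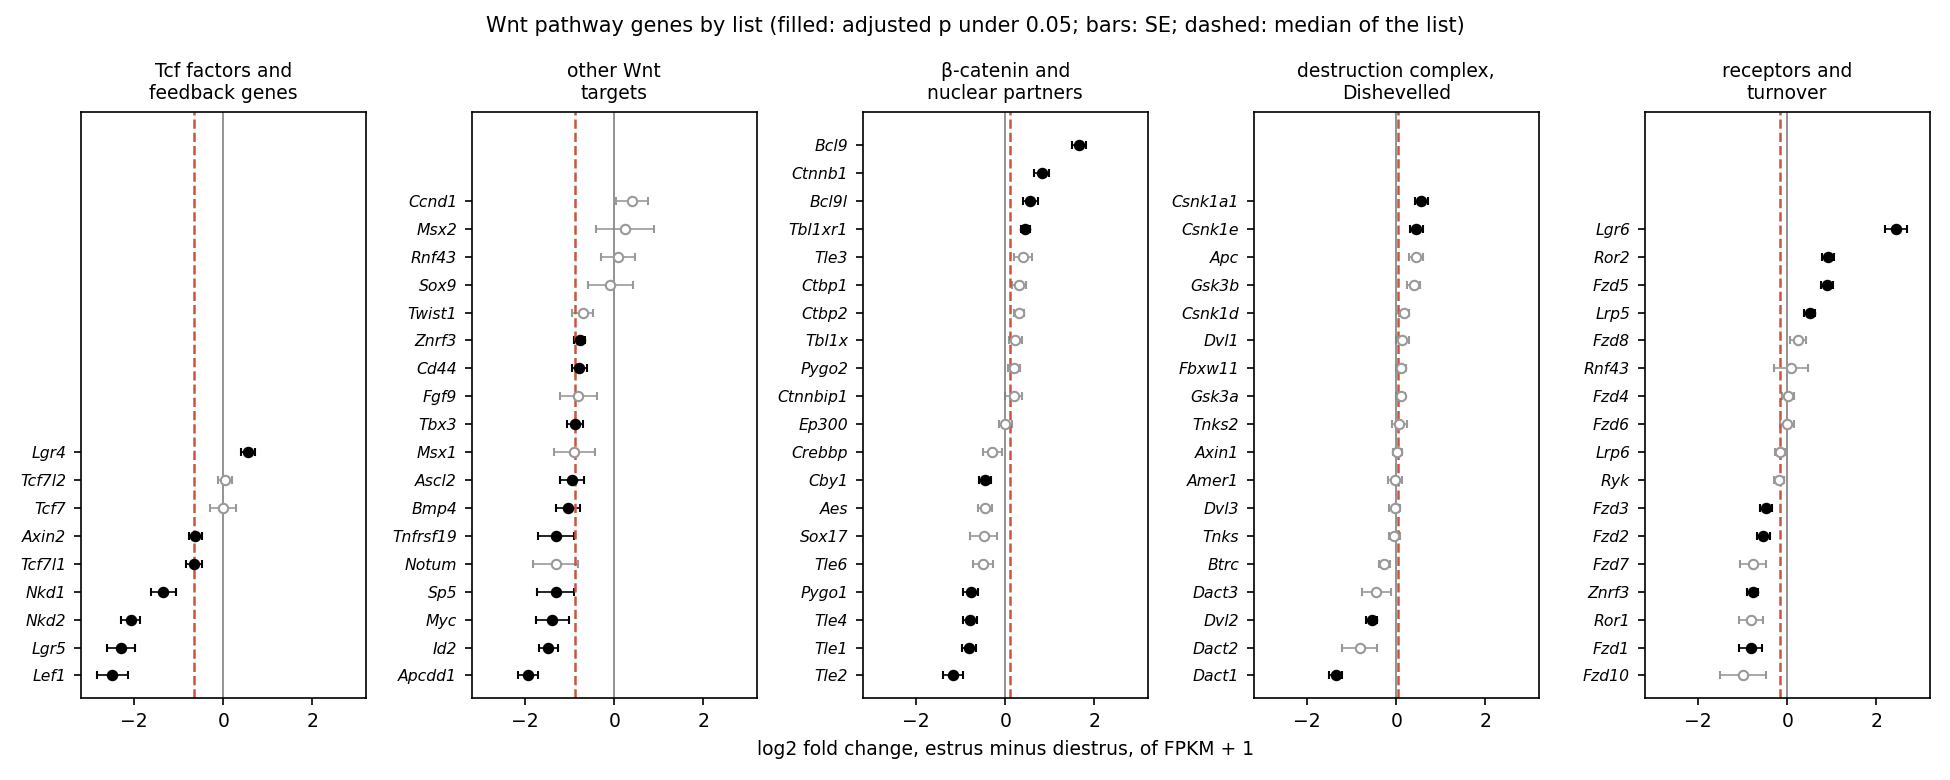
Log2 fold change of FPKM + 1 (horizontal axis, estrus minus diestrus) with SE for each tested gene of 5 Wnt pathway lists. Filled points passed an adjusted p of 0.05 and dashed lines are list medians, which are -0.66 for the Tcf factors and feedback genes, -0.89 for other targets and between -0.16 and 0.096 for the remaining lists.

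The uterus holds several tissues, and markers of the main ones were present. Over all rows 17.2% rose and 14.0% fell, to be read beside the counts given here. The summed FPKM of 12 epithelium markers was 1039 to 1449 at diestrus and 3449 to 3972 at estrus, and 9 rose and none fell. For 12 stroma markers it was 3281 to 5979 and 4210 to 5580, with 1 rise and 4 falls, and for 10 smooth muscle markers 2708 to 7050 and 3009 to 5364, with 1 rise and 1 fall. Both smooth muscle shares were below those of all rows. The 10 endothelium markers summed to 273.6 to 646.8 and 160.2 to 202.4, and 9 fell. The gland markers summed to 228.5 to 5985 and 152.1 to 204.0, and 3 of 6 tested fell. Of these 3, Ttr was under 1 FPKM in every estrus library and passed the filter only through diestrus. Without Spink3 the gland sums were 116.5 to 212.3 and 140.3 to 190.9, which overlap, and Prom1 had a positive log2 change that did not pass. The 9 macrophage markers summed to 384.0 to 866.2 and 420.5 to 524.1, with 4 falls and 1 rise. The 5 mesothelium markers summed to 148.8 to 250.4 and 550.5 to 708.8, with 2 falls and 1 rise, that of Krt19, which is also an epithelium marker. Without Krt19 the sums were lower at estrus, at 51.7 to 108.8 and 28.9 to 50.2, and the other 4 had negative log2 changes. The 9 markers of stratified epithelium, as in cervix and vagina, summed to 3.14 to 4.90 FPKM at diestrus and 6.77 to 24.6 at estrus, and the only 1 high enough to test did not pass. The part of these differences in the falls of Lef1, Tcf7l1, Axin2, Nkd1, Nkd2 and Lgr5 and the rise of Lgr4 was not tested.

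Lef1 and Tcf7 are also genes of T lymphocytes. The 13 T lymphocyte markers in the table summed to 12.8 to 25.4 FPKM at diestrus and 6.495 to 7.99 at estrus, and all 5 that were high enough to test fell. Of all rows, 14.0% fell. Cd3g, Cd2 and Cd4 were under 1 FPKM in every estrus library and passed the filter only through diestrus, so their falls are partly built in. No defining marker was at 0 in every library, but Cd3d and Cd3e were at 0.55 to 0.70 and 0.40 to 1.30 FPKM at diestrus and at most 0.29 and 0.20 at estrus. The highest of the list at estrus was Lck, at 3.398 to 3.76 FPKM. The 10 natural killer markers summed to 24.4 to 101.4 FPKM at diestrus and 12.6 to 22.9 at estrus, and 2 fell, beside 14.0% of all rows. Of these 2, Klrb1c was under 1 FPKM in every estrus library and passed the filter only through diestrus. Of 6 B lymphocyte markers, only Cd79b was high enough to test, and it rose. The part of lymphocytes in the values of Lef1 and Tcf7 was not tested.

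Libraries of the same group had Spearman correlations of 0.916 to 0.974 and those of different groups 0.820 to 0.919. The spacing of the lowest FPKM values put the depth of the libraries at 0.92 to 1.36 times that of estrus replicate 1, and absolute depth is unknown. Diestrus replicate 1 was nearest to estrus on the first principal component (60.2% of the variance). Without it all 6 falls and the rise of Lgr4 passed. Antisense genes overlap Lef1, Tcf7, Tcf7l1 and Axin2, noncoding or unclassified genes on the same strand overlap Lef1, Tcf7, Tcf7l1, Tcf7l2 and Nkd1, the coding gene A930009A15Rik overlaps Lgr5 and a pseudogene overlaps Nkd2. Whether strand was used in counting is not given in the sources used here, so reads from those overlaps may be included.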

How the data were processed

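RNA had been purified on Qiagen RNeasy columns with DNase and made into Illumina TruSeq libraries, per the labels' protocols. The authors deposited FPKM, 1 column per library. TopHat2 2.0.4 and mm10 (GRCm38) are named without a role, per the submitters' processing notes. For the FPKM, program and annotation were not given in the sources used here. Sample descriptions matched the columns, with 0 left over, and groups follow the titles.

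Rows with at least 1 FPKM in at least 3 libraries were tested with limma 3.58.1 (R 4.3.3) after taking log2(FPKM + 1), comparing the 2 groups with an intensity trend and Benjamini-Hochberg adjustment over all 13920 rows. Differences between members used exact permutation. The fit was tested on simulated data. The alternatives were pseudocounts of 0.1 and 5, a stricter filter (mean 5 FPKM or more) or none, scaling by median ratios or by quantile normalization, a fit without the trend, a replicate block, and each library left out.

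Members and lists were chosen with earlier results of these data known. Named were all members, every gene of a pathway list that passed, and the 3 rows most like each member. Apcdd1 and other genes given per library, the genes that did not pass and the single markers were picked for description after values were seen. Troy, an older name of Tnfrsf19, and Trac, Trbc1, Trbc2 and Adgre1 had no row under those symbols. Gene positions are from GENCODE M21. Motifs were searched on both strands of the 250 bases before RefSeq start sites. Lgr5 had no entry in that table. Python 3.11.15 with matplotlib 3.10.9 made the figures.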

Additional observations from a re-analysis of the deposited data

Results flagged for a closer look

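Lef1 in diestrus replicate 3, at 17.9 FPKM, lay far above the other 3 diestrus libraries, which averaged 6.56 ± 0.41 FPKM (SD, n = 3). Its gap to the next library was 0.939 of the range of the group, above Dixon's 95% critical value for 4 samples. Chance flags about 1 in 20 groups, and the diestrus values of the 9 members were all examined. The fall of Lef1 at estrus passed without this library. The summed natural killer markers were at 101.4 FPKM in diestrus replicate 3 and 97.9 in diestrus replicate 4, where Lef1 was at 6.79 FPKM, and at 24.4 and 25.6 in diestrus replicates 1 and 2. Their part in the Lef1 value was not tested.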

How the results depend on the processing

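Lef1, Lgr5 and Nkd2 kept their direction and passed in all alternatives run for them (Lgr5 was under the filter at a mean of 5 FPKM). Over all rows, 1299 were higher and 982 lower with the replicate block and 1181 lower at a mean of at least 5 FPKM, where fewer rows are tested (10622). With single libraries left out, 854 to 2866 were higher and 579 to 2445 lower, and the members called were 0 to 1 higher and 3 to 6 lower. Lgr4 missed the threshold with no filter (0.55, adjusted p = 0.0510), quantile normalization (0.48, 0.0645) and the replicate block (0.52, 0.120), so 0 members were higher there, and Tcf7l1 missed it with the block (-0.59, 0.0822). Left-out libraries gave log2 fold changes of 0.47 to 0.66 for Lgr4, -0.75 to -0.58 for Tcf7l1, -0.74 to -0.53 for Axin2, -1.54 to -1.18 for Nkd1, -0.27 to 0.18 for Tcf7 and -0.078 to 0.12 for Tcf7l2, which was -0.0081 with quantile normalization. With a pseudocount of 5, Lef1 minus Tcf7, Tcf7l1 and Tcf7l2 and Lgr5 minus Lgr4 moved by -1.26, -0.77, -1.29 and -1.38 and no longer passed. Without single libraries the exact test cannot reach 0.05, and values only were compared.

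For the nuclear list, 2 genes rose after quantile normalization and 1 under the replicate block, and 2 fell at a mean of at least 5 FPKM and 2 with the block. Left-out libraries gave 1 to 4 rises and 1 to 6 falls. In the destruction complex list, 1 rose without a filter, 1 after median-ratio scaling, 0 after quantile normalization and 0 under the block, and 1 fell at a mean of 5 FPKM and 1 with the block, with 0 to 2 rises and 1 to 2 falls when single libraries were left out. Of the receptors 1 fell with the block and 1 to 5 with single libraries left out, and of the other targets 6 fell with no filter and 5 to 10 with single libraries left out. With the block, 1299 of all 13920 rows rose and 982 fell, and the list counts are to be read beside the calls over all rows. Apart from the filters, the cause of these changes in count was not tested.

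Replicate numbers are shared by the titles of both groups, and deviations from the group means correlated at 0.198, 0.0243 and 0.169 for numbers 1 to 3. Diestrus replicates 2 and 3 correlated best with their own number, but for replicate 2 this was 0.0243 against 0.0241 with estrus replicate 1. Diestrus replicate 1 did not, at 0.198 against 0.206 with estrus replicate 2. The labels state no pairing, and so few correlations cannot settle whether there was one. Diestrus replicate 4 has no partner, so the block leaves it out in effect. FPKM hold no read counts, so the depth behind values such as 0.0777 FPKM is unknown.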

Other observations

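Within the diestrus group, several other Wnt genes, picked after their values were seen, were higher in replicates 1 and 2 than in replicates 3 and 4. Wif1, a secreted Wnt inhibitor, was at 2.81 and 5.82 FPKM in replicates 1 and 2 and at 0.016 and 0.052 in replicates 3 and 4. The Wnt target Sp5 was at 3.56 and 7.03 against 1.29 and 1.59 FPKM, and the Wnt deacylase gene Notum at 2.64 and 7.20 against 1.66 and 0.464. Rnf43 was at 16.8 and 15.9 against 6.17 and 5.63 FPKM, Fzd10 at 10.8 and 13.5 against 3.17 and 2.84, and Msx1, a homeobox gene, at 175.6 and 132.5 against 54.1 and 49.0. Of 71 tested genes in the 4 other pathway lists, 26 were higher in both replicates 1 and 2 than in replicates 3 and 4, 14 went the other way and 31 did not divide. The share of all rows that divided in this way was not counted. Neither these counts nor those of the members below therefore set Wnt genes apart. Myc, Fgf9, Sox9 and Fzd1 were among the 14, Myc being at 48.4 and 39.3 against 113.2 and 85.3 FPKM. The summed gland markers were at 228.5 and 239.4 FPKM in replicates 1 and 2 and at 5985 and 5071 in replicates 3 and 4, where the secreted inhibitor gene Spink3 alone was at 5835 and 4900. Ttr and Wfdc3 were also higher in replicates 3 and 4, and Foxa2, Sox17 and Cxcl15 were higher in replicates 1 and 2. Of the 9 members, Tcf7 and Axin2 were also higher in replicates 1 and 2 than in replicates 3 and 4, and the other members did not divide the diestrus libraries in this way. No test was made of this division, since it was seen in the values.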
